A study of Bos taurus and Bos indicus with 12 samples.

Results

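Cytosolic ribosomal protein genes were followed through the skin of cattle with and without infestation by the tick Rhipicephalus microplus. Members were the genes whose platform symbol is RPL or RPS followed by a digit, or one of RPLP0, RPLP1, RPLP2 and RPSA, with the RPS6K kinases left out. The spelling picked 69 of the 9155 genes that had 1 symbol on the array. RPS19BP1 fits the spelling but encodes a protein that binds RPS19 and is no part of the ribosome, so it was set apart. The remaining 68 genes comprised 43 of the large subunit and 25 of the small subunit, each read by its brightest probe set over the 12 arrays. Together they had 97 of the 24016 probe sets tested.

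Whole-skin biopsies, 8 mm wide and about 10 mm deep, came from 12 female animals, and each RNA was hybridised to its own Affymetrix bovine array. Holstein-Friesian is a taurine dairy breed that carries many ticks, and Brahman is an indicine breed known for tick resistance. The 4 groups held 3 animals each. The 3 naive Holstein-Friesian animals were 12 months old and the 3 naive Brahman animals were 18 months old, and neither group had met this tick before. The 3 infested Holstein-Friesian and 3 infested Brahman animals were 6 months old and had gone through repeated heavy infestations. Their skin was sampled where larvae of about 24 h were attached. Infestation and age cannot be told apart within a breed, and the naive breeds differed in age as well as breed. All values are log2 signals from RMA, in which a difference of 1 is a doubling, and each group has n = 3 arrays.

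The cytosolic ribosome is built from a large and a small subunit, each a core of ribosomal RNA clothed in ribosomal proteins that are made in nearly equal numbers. The small subunit reads the messenger RNA, and the large subunit joins amino acids and lets the new chain out. Messages for ribosomal proteins are among the most abundant in any growing cell. They share a 5' terminal oligopyrimidine tract (TOP), through which growth signals set their translation together.

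The members were among the brightest probe sets on the arrays. Of the 68, 61 lay in the top 1% by mean signal, which held 241 probe sets and began at 12.1 log2. Their median mean signal was 13.6 log2, and the brightest probe set of any kind lay between 14.4 and 14.8 log2 on each array. The members' median was 0.81 to 1.23 log2 below that maximum, and whether signals this close to it are compressed was not tested. The spread between animals of a group was small, with a median residual SD of 0.11 log2 over the members against 0.26 over all probe sets. RPS19, RPL3L and RPL37 lay below 6 log2, under the median over all probe sets, and their differences are given as measured without a claim that the message was detected.

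The arrays also differed in RNA integrity, read as the mean 5' minus 3' signal of 5 control transcripts, so that RNA short of its 5' ends gives a low index. Naive animals had -1.13 ± 0.29 (SD, n = 3) in the Holstein-Friesian and -0.94 ± 0.10 in the Brahman group. Infested animals had -1.57 ± 1.04 in the Holstein-Friesian and -3.18 ± 1.52 in the Brahman group. The lowest values were -4.91 in infested Brahman array 1 and -2.73 in infested Holstein-Friesian array 1. Markers of epidermis were bright and none of the 5 measured of 8 passed the test in either breed. Of 8 measured macrophage markers of 9, 6 rose with infestation in Holstein-Friesian and 3 in Brahman skin. The mean macrophage level, against the naive arrays, was -0.60 to 0.64 (Holstein-Friesian) and -0.26 to 0.34 (Brahman) when naive, and 1.75 to 1.95 and 0.97 to 1.67 when infested. Of 7 fibroblast markers, 2 rose in Holstein-Friesian and 6 in Brahman skin, with levels of 0.07 to 0.39, -0.31 to -0.10, 0.65 to 0.79 and 0.78 to 1.10 in the same order of groups. Skeletal muscle markers, 8 measured of 9, differed between naive Brahman arrays, with levels of -0.66, 0.85 and 1.12 in arrays 1, 2 and 3. They lay at -0.74 to -0.13 in naive Holstein-Friesian, -0.84 to -0.50 in infested Holstein-Friesian and -0.68 to -0.51 in infested Brahman arrays, and in Brahman skin 2 fell (MYBPC1 and TNNC2) and 1 (CKM) rose. RMA values have no zero, so no marker can be called absent. The part of cell makeup in the results was not tested, and in bulk skin fewer cells of a type and less RNA per cell cannot be told apart.

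As a set, the ribosomal protein genes stayed close to their naive level in every array. Against the mean of the 6 naive arrays, the median over the 68 genes was -0.03, -0.03 and 0.04 log2 in the naive Holstein-Friesian arrays and -0.03, 0.03 and 0.03 in the naive Brahman arrays. It was -0.10, -0.03 and 0.08 in the infested Holstein-Friesian arrays, which straddled the naive ones. In the infested Brahman arrays it was -0.07, -0.10 and -0.11, each below all 6 naive arrays. Single genes scattered more widely around those medians in the infested arrays. The SD over the 68 genes was 0.0646 to 0.110 in the naive arrays, which also define the reference, 0.136 to 0.244 in Holstein-Friesian and 0.204 to 0.552 in Brahman arrays after infestation. Over all probe sets the same SD went from 0.237 to 0.304 in the naive arrays to 0.587 to 0.637 and 0.674 to 0.905 in the infested groups, so greater scatter was not particular to ribosomal proteins. No member lay more than 0.5 log2 below its naive mean in a naive array, whereas 6 did in infested Holstein-Friesian array 1 and 10, 9 and 4 did in infested Brahman arrays 1, 2 and 3.

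**Figure D1:**
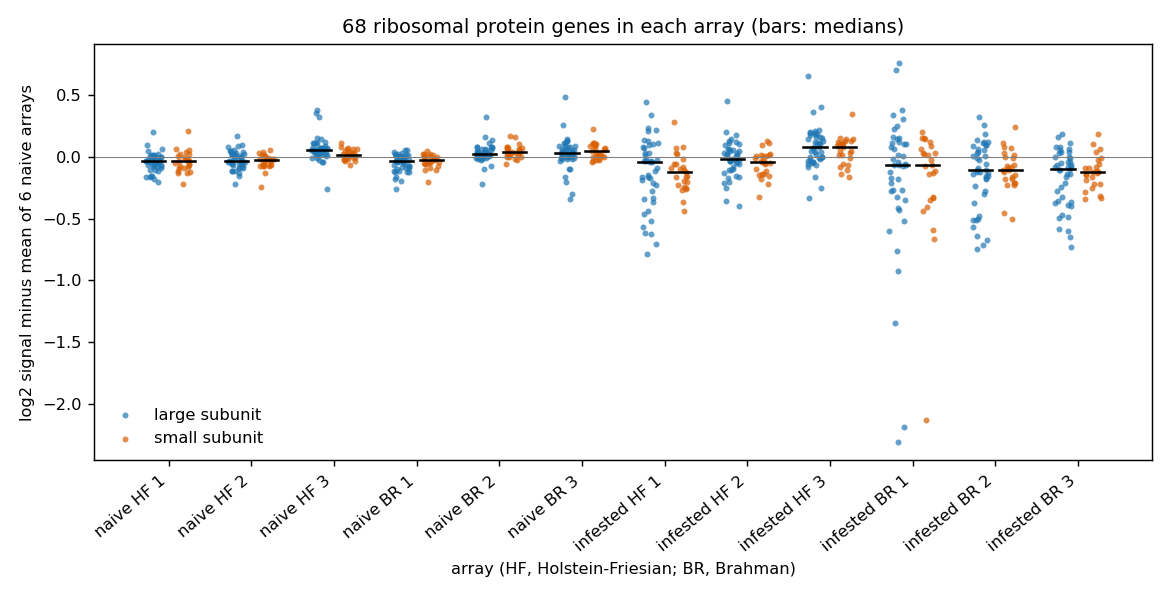
Each point is 1 of the 68 genes in 1 of the 12 arrays, drawn as its log2 signal minus its mean over the 6 naive arrays, with blue for the large and orange for the small subunit and a black bar at each subunit's median. The medians stay within about 0.1 log2 of zero, while the points spread downward in infested Brahman array 1, where RPL13 reaches -2.30.

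In Holstein-Friesian skin, infestation left the ribosomal protein genes near the naive level. None of the 68 passed limma's test at a Benjamini-Hochberg adjusted p of 0.05. It was passed by 5.02% of all probe sets (2.68% higher and 2.34% lower). The count of members past it was also 0 under each of the 21 other settings tried. An unadjusted p under 0.05 was found for 2 members, against 5184 of all 24016 probe sets. The groups did not overlap for 15 genes, or 22.1%, against 30.3% of all probe sets. The median difference was -0.02 log2, near the -0.03 of all probe sets, and its sign turned to 0.03 when each array was centred on its median. Single genes ranged from -0.35 to 0.45. For 57 of the 68 genes (83.8%) the 95% interval of the difference lay within 1.5-fold in either direction. This held for 34.2% of all probe sets and for 57.7% of the 241 brightest, of which 61 were members.

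The 5 genes with the smallest p in Holstein-Friesian skin did not pass. RPL3, which reaches toward the site of peptide bond formation, differed by -0.29 ± 0.12 log2 (SE, limma, adjusted p = 0.173). RPL3L, a paralog of RPL3 best known from striated muscle, differed by 0.45 (adjusted p = 0.220), on a dim probe set with a mean of 4.79 log2. RPL26L1, a close paralog of RPL26, differed by 0.39 (adjusted p = 0.253), RPL10A by -0.35 (0.287) and RPL28 by -0.25 (0.300). These genes point in both directions, and RPL3, RPL26L1 and RPL10A were the ones met again in Brahman skin.

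In Brahman skin, 4 large subunit genes fell with infestation and none of the 68 rose. The 4 were RPL3, RPL19, RPL22 and RPL10A, with falls of 1.33-fold to 1.55-fold. They made up 5.88% of the members, while 10.2% of all probe sets fell and 19.8% changed in either direction, so the share that fell was no larger than the background. A further 11 genes were lower and 1 was higher at an unadjusted p under 0.05 without passing the adjusted threshold. With the 4 calls, 16 of the 68 had such a p, against 8341 of all 24016 probe sets. The median over the 68 genes was -0.12 log2 against 0.04 over all probe sets and -0.11 over the 241 brightest, and it was -0.03 when arrays were centred and -0.04 after cyclic loess. The groups did not overlap for 35 genes, or 51.5%, against 38.5% of all probe sets and 116 of the 241 brightest. Differences beyond 1.5-fold were found for 5 of the 68 genes, or 7.35%, against 29.1% of all probe sets and 20.7% of the 241 brightest.

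RPL3 read 13.62, 13.70 and 13.53 log2 in the naive Brahman arrays and 13.24, 13.00 and 13.20 in the infested ones. It fell by 0.47 ± 0.12 (1.39-fold, limma, adjusted p = 0.0177). All 6 infested arrays of both breeds lay below all 6 naive arrays, since the Holstein-Friesian values were 13.46, 13.50 and 13.59 when naive and 13.23, 13.21 and 13.24 when infested.

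RPL19, whose long tail helps to bridge the subunits, read 13.31, 13.41 and 13.65 in naive and 12.79, 12.89 and 12.80 in infested Brahman skin. It fell by 0.63 ± 0.17 (1.55-fold, limma, adjusted p = 0.0255). It was the 1 member more than 0.5 log2 under its naive mean in all 3 infested Brahman arrays, and it was also low in infested Holstein-Friesian array 1, at 12.69 beside 13.18 and 13.35.

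RPL10A, part of the mobile L1 stalk where spent transfer RNA leaves, read 13.13, 13.19 and 13.13 in naive and 12.78, 12.46 and 12.40 in infested Brahman skin. It fell by 0.60 ± 0.18 (1.52-fold, limma, adjusted p = 0.0382). Its infested Holstein-Friesian values were 12.35, 12.88 and 13.07, the first of them from the array with the lower integrity index.

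RPL22, which the ribosome can spare but which T cell development needs, read 13.34, 13.38 and 13.44 in naive and 13.03, 12.99 and 12.91 in infested Brahman skin. It fell by 0.41 ± 0.12 (1.33-fold, limma, adjusted p = 0.0357). In Holstein-Friesian skin its values of 13.14, 13.17 and 13.32 when naive and 12.97, 13.09 and 13.25 when infested overlapped.

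The count of 4 depended on single arrays and on the treatment of integrity. It was 0 without naive Brahman array 2, 1 without naive Brahman array 3, 2 without any one of naive Brahman array 1 and naive Holstein-Friesian arrays 1 and 2, and 6 without infested Brahman array 1 or infested Holstein-Friesian array 1. The share of all probe sets called lay between 9.23% and 23.2% over these omissions. Naive Brahman arrays 2 and 3 are those with the higher muscle marker levels, and the part of muscle in these calls was not tested. Leaving out both arrays of lowest integrity index gave 12 genes that fell, where 26.0% of all probe sets were called. With the index as a covariate the count was 0, where 7.53% were called, and 3 members had an unadjusted p under 0.05. The remaining infested Brahman arrays, with an index of -2.56 and -2.07, still lay below every naive array, the lowest at -1.39. Infestation and integrity therefore cannot be told apart in Brahman skin by either count. With the 6 Brahman arrays alone RPL19 was the 1 call (limma, adjusted p = 0.0392), where 12.5% of all probe sets were called. The calls split into 1 rise and 1 fall with centred arrays, and into 1 rise and 4 falls after cyclic loess. In each of these settings 20.8% of all probe sets were called.

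**Figure D2:**
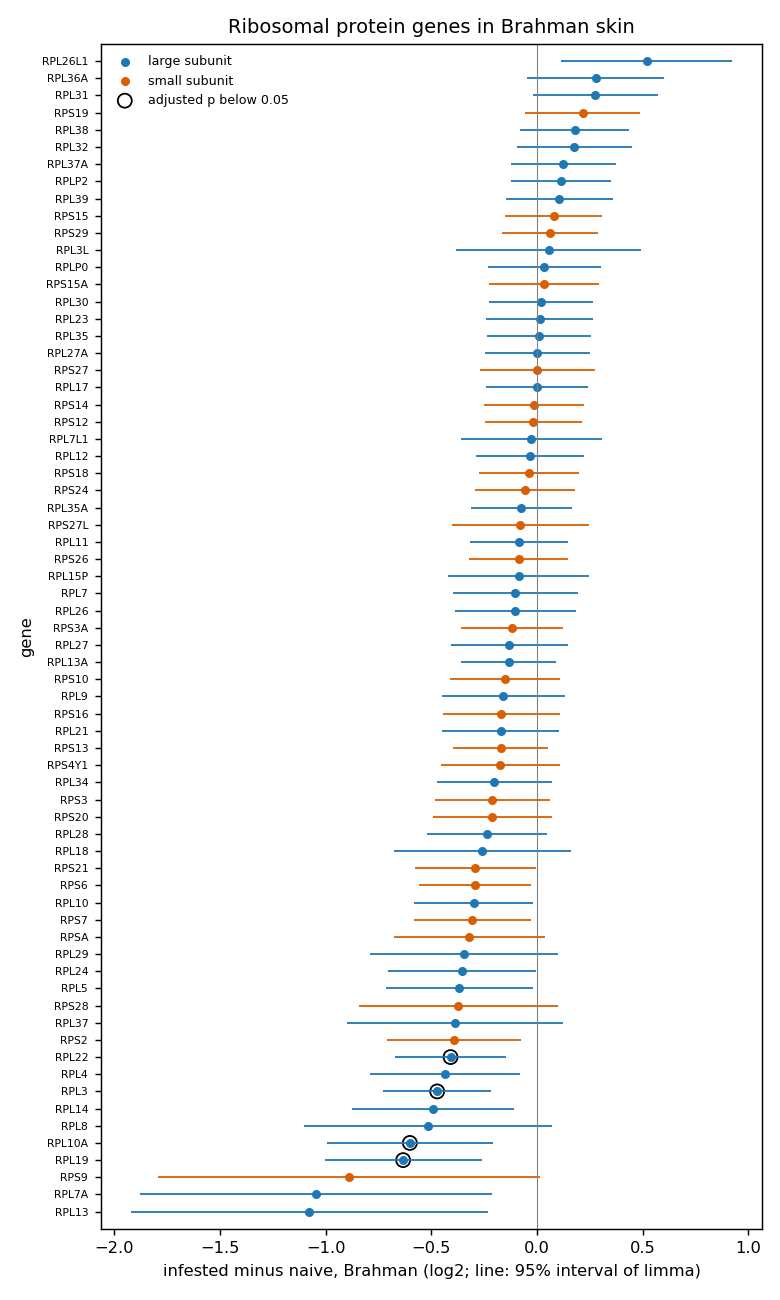
The infested minus naive difference in Brahman skin (log2) is drawn for each of the 68 genes with limma's 95% interval, ordered from the highest to the lowest, in blue for the large and orange for the small subunit, with rings on the 4 genes past the threshold. RPL13, RPL7A and RPS9 lie lowest, without rings and with intervals wider than those of the ringed genes.

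The lowest mean differences in Brahman skin belonged to RPL13, RPL7A and RPS9, which did not pass, and array 1 was far below the other infested arrays in each. RPL13 read 13.51, 13.53 and 13.74 in naive and 11.30, 13.13 and 13.11 in infested Brahman skin, a difference of -1.08 ± 0.38 (limma, adjusted p = 0.0702). RPL7A read 13.33, 13.45 and 13.54 against 11.26, 12.94 and 12.98, a difference of -1.05 ± 0.38 (limma, adjusted p = 0.0740). RPS9, a small subunit protein at the entry of the messenger RNA channel, read 13.05, 13.12 and 13.17 against 10.93, 12.85 and 12.90. Array 1 had the lowest integrity index of the 12, -4.91. In each of these genes all infested Brahman arrays lay below all naive ones, and array 1 lay more than 1.5 log2 below the other infested arrays. Without infested Brahman array 1, RPL13 differed by -0.47 (1.39-fold in place of 2.11-fold) and passed (adjusted p = 0.0297), whereas RPL7A at -0.48 (0.0965) and RPS9 at -0.24 (0.259) did not. RPL13 also passed without infested Brahman array 2 (0.0401) or array 3 (0.0386), and RPL7A did so too (0.0497 and 0.0402), both with wider differences. With the integrity index as a covariate the differences of RPL13, RPL7A and RPS9 were 0.0011, 0.13 and 0.32, none of which passed. RPL8, which lines the catalytic centre, showed the same array apart, at 12.26 beside 13.45 and 13.52, against 13.56, 13.62 and 13.58 when naive. Of the 18 genes that were more than 0.5 log2 under their naive mean in at least 1 infested Brahman array, 8 were so in array 1 alone. RPL26L1 was the 1 gene higher at an unadjusted p under 0.05, at 9.22, 9.51 and 9.31 when naive and 10.23, 9.80 and 9.56 when infested, a difference of 0.52 (limma, adjusted p = 0.0696). It passed with centred arrays (adjusted p = 0.0475), after cyclic loess (0.0367) and without infested Brahman array 3 (0.67, 0.0333). Without infested Brahman array 1, which held the 10.23, it differed by 0.33 (0.185).

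No breed difference in the infestation effect passed for any of these genes. No member passed limma's test of the difference between the breed effects and none had an unadjusted p under 0.05, where 0.00416% of all probe sets, a single one, passed. The median difference in effect was -0.11 log2 against 0.05 over all probe sets, and its sign turned to 0.02 after cyclic loess. The 5 smallest p belonged to RPS21 at -0.35 (adjusted p = 0.662), RPL22 at -0.30, RPL13 at -0.91, RPS28 at -0.51 and RPS7 at -0.28. RPS28 was the 1 gene that passed without both arrays of lowest index (-0.89, limma, adjusted p = 0.0456), where 4.71% of all probe sets passed. The effects in the breeds, measured on separate arrays, had Pearson's r of 0.63 across the 68 genes, with 35 genes lower in both, 16 higher in both and 51 of the same sign. The points share probe sets and their brightness, and genes are not independent replicates.

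**Figure D3:**
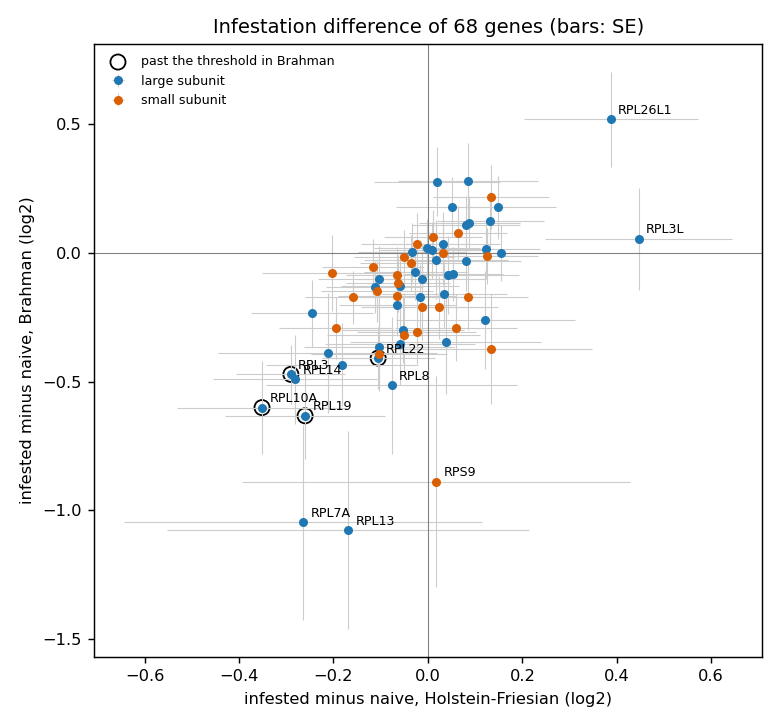
Each point is 1 of the 68 genes, placed by its infested minus naive difference in Holstein-Friesian (horizontal axis, log2) and Brahman skin (vertical axis, log2), with bars of 1 SE, blue for the large and orange for the small subunit, and rings on the 4 genes past the threshold in Brahman skin. RPL3, RPL10A and RPL19 lie low on both axes, while RPS9 is near zero in Holstein-Friesian and low in Brahman skin.

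Between the breeds themselves, ribosomal protein genes were level among naive animals. These were separate animals from the infested ones and differed in age as well as breed. None passed limma's test among naive animals, where 0.025% of all probe sets passed, and the count was 0 under all 21 other settings. An unadjusted p under 0.05 was found for 2 members, against 1149 of all 24016 probe sets. The groups did not overlap for 12 of 68 genes, against 14.5% of all probe sets. The median Brahman minus Holstein-Friesian difference was 0.02 log2, and -0.02 after cyclic loess. Among infested animals none passed either, where 0.167% of all probe sets passed. There 2 members had an unadjusted p under 0.05, against 3117 of all 24016 probe sets. The groups did not overlap for 6 genes, against 13.4% of all probe sets, and the median was -0.08 log2. Without both arrays of lowest index, 5 of the 68 genes were called lower in infested Brahman skin, where 9.16% of all probe sets were called. They were RPL10A, RPL14, RPL5, RPL7L1 and RPS28.

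RPL7L1, a paralog of RPL7, had the smallest p of any member in both breed comparisons. It read 9.76, 9.73 and 9.94 in naive and 9.77, 9.74 and 9.97 in infested Holstein-Friesian skin. In Brahman skin it read 9.39, 9.34 and 9.22 when naive and 9.50, 9.39 and 8.98 when infested. Every Brahman array lay below every Holstein-Friesian array, by group differences of -0.49 ± 0.15 in naive (limma, adjusted p = 0.627) and -0.54 ± 0.15 in infested animals (adjusted p = 0.224), neither of which passed. Its other 2 probe sets, both dimmer, ran the other way, with means of 6.74 and 7.30 in naive Brahman against 6.40 and 6.89 in naive Holstein-Friesian skin, and 7.52 and 6.78 against 6.41 and 6.42 when infested. The breed difference of RPL7L1 therefore has no settled direction across its probe sets, and none of them passed. Among naive animals RPL3L (0.45), RPL36A (-0.28), RPL22 (0.18) and RPL26L1 (-0.26) followed, each with an adjusted p of 1. RPL3L read 4.54, 4.99 and 5.15 in the naive Brahman arrays, in the same order as their muscle marker levels of -0.66, 0.85 and 1.12. The naive Holstein-Friesian arrays, at 4.46, 4.44 and 4.40 with muscle levels of -0.74, -0.13 and -0.44, did not keep that order. The highest RPL3L value, 5.37, came from infested Brahman array 1, with a muscle level of -0.68. The part of muscle in RPL3L was not tested. Among infested animals RPL13 (-0.94, adjusted p = 0.348), RPL29 (-0.44), RPL7A (-0.80) and RPS7 (-0.25) followed. All 4 had lower means in Brahman skin, and none passed.

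The medians of the large and small subunit genes lay within 0.1 log2 of each other in each comparison, and neither was the lower in every one. In Holstein-Friesian skin the median infestation difference was -0.01 log2 over the 43 large and -0.02 over the 25 small subunit genes. In Brahman skin it was -0.10 over the large and -0.15 over the small subunit genes. Between infested breeds it was -0.11 and -0.03, and for the breed difference in effect -0.13 and -0.06, so here the large subunit was the lower. All 4 calls in Brahman skin were falls of large subunit genes, or 9.3% of the 43, against 10.2% of all probe sets. An unadjusted p under 0.05 was found for 12 of the 43 large and 4 of the 25 small subunit genes. Of all 24016 probe sets, 8341 had one. The lowest of those small subunit p belonged to RPS2, which differed by -0.39 (limma, adjusted p = 0.0781), and RPS7 and RPS6 differed by -0.31 and -0.29. Array by array, the large minus small median was 0.01 ± 0.03 (SD, n = 3) in naive and 0.03 ± 0.04 in infested Holstein-Friesian animals, and -0.01 ± 0.01 in naive and 0.01 ± 0.02 in infested Brahman animals. The infested Brahman arrays, at 0.00, -0.0015 and 0.026, all lay above the naive Brahman ones, at -0.0064, -0.013 and -0.016. The spread of this measure within groups was 0.025 (SD), and no test was made of it. The subunit medians given above for each comparison are over differences of group means, another quantity. This spread therefore cannot be set against them.

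The stalk that calls elongation factors to the large subunit is formed by RPLP0, which anchors it, with RPLP1 and RPLP2. RPLP1 was not analysed here. RPLP0, often used as a reference gene in PCR, read 13.71, 13.75 and 13.76 in naive and 13.77, 13.69 and 13.86 in infested Holstein-Friesian skin. In Brahman skin it read 13.71, 13.73 and 13.75 when naive and 13.56, 13.85 and 13.89 when infested. Its difference was 0.03 log2 (95% interval -0.24 to 0.30) in Holstein-Friesian and 0.04 (-0.23 to 0.30) in Brahman skin. RPLP2 differed by 0.09 and by 0.12 (-0.12 to 0.35), with 13.88, 13.84 and 13.93 in infested Brahman skin above its naive 13.76, 13.75 and 13.78. Neither gene passed, and infested Brahman arrays spread more widely than naive ones for RPLP0. A second RPLP0 probe set had nearly the same mean signal, 13.72 against 13.75 log2. It differed by -0.82 in Brahman skin without passing, so the small RPLP0 difference holds for the brightest probe set only.

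RPSA, a small subunit protein also known as the laminin receptor precursor, differed by -0.32 in Brahman skin (limma, adjusted p = 0.187). Its infested Brahman values were 12.93, 13.41 and 13.50, the first again from array 1, against 13.54, 13.62 and 13.62 when naive. RPL5 and RPL11 bind 5S ribosomal RNA and, when free, the p53 regulator MDM2. RPL5 read 13.58, 13.66 and 13.71 in naive and 13.47, 13.15 and 13.25 in infested Brahman skin, a difference of -0.37 (limma, adjusted p = 0.127), and it passed without both arrays of lowest index. RPL11 differed by -0.08 in Brahman and 0.05 in Holstein-Friesian skin, so the partners did not share a call in either breed. RPS19, the gene most often mutated in Diamond-Blackfan anaemia, differed by 0.22 in Brahman and 0.13 in Holstein-Friesian skin on a dim probe set of 5.24 to 5.65 log2.

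Read on their brightest probe sets, paralogs had no call of their own in the main test. RPS27L, which p53 induces, differed by -0.20 in Holstein-Friesian and -0.08 in Brahman skin, while RPS27 differed by 0.03 and 0.00. RPL7 differed by -0.01 and -0.10, and RPL26 by -0.10 in both breeds. RPL3L differed by 0.06 in Brahman skin, where its parent RPL3 fell. The brightest probe set that the platform names RPS4Y1 differed by 0.08 and -0.17, with no parent gene set beside it. A dimmer one rose by 0.52 in Brahman skin. All animals were female, and which message these probe sets read was not tested. Ribosomal protein genes have many processed copies in mammalian genomes. Of the 68 probe sets, 13 carry the suffix for transcripts of 1 gene (_a) and 1 the suffix for several genes (_s). The suffix for possible cross-hybridisation (_x) is carried by 1, that of RPLP0. RPL15P is listed as a pseudogene in the RefSeq gene table, and whether its signal includes other copies was not tested.

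Probe sets of the same gene often gave different values. Of the 68 genes, 19 had more than 1 probe set, and the 29 probe sets beside the brightest had a median mean signal of 7.52 log2. In Brahman skin 8 of these 29, or 27.6%, rose, against 9.54% of all probe sets, and 1 fell. Those that rose read RPL15P (1.46 log2, limma, adjusted p = 0.000921), RPL21 (1.64), RPL32 (0.93), RPL9 (1.13), RPS3 (0.51), RPS4Y1 (0.52) and RPS12, with 2 probe sets (1.49 and 1.69). The most marked was 1 of RPS12, at 7.63, 7.54 and 7.57 in naive and 9.45, 9.26 and 9.11 in infested Brahman skin (adjusted p = 0.000163), while the brightest RPS12 probe set differed by -0.02. In Holstein-Friesian skin 3 of the 29 rose, or 10.3% against 2.68% of all probe sets: RPL15P (0.84, adjusted p = 0.0279) and the same RPS12 pair (1.13 and 0.60). Of the 8 that rose in Brahman skin, 6 have a name with an A in place of the usual S of this array design, as do 18 of the 29.

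The 1 that fell in Brahman skin was a second bright probe set of RPL10, a protein at the joint of the subunits. It read 13.78, 13.77 and 13.96 when naive and 10.75, 12.66 and 12.75 when infested, a difference of -1.78 (limma, adjusted p = 0.0188), whereas the brightest RPL10 probe set differed by -0.30. A second bright probe set of RPLP0 read 11.93, 13.71 and 13.80 in infested Brahman skin, a difference of -0.82 (adjusted p = 0.166), with array 1 again apart. Within a gene, the range of the Brahman difference over its probe sets had a median of 0.88 and a maximum of 1.81 log2, and it was over 0.5 in 13 of the 19 genes. In Holstein-Friesian skin the median range was 0.39. No gene had probe sets called in opposite directions. When all probe sets of a gene were averaged, 4 genes rose in Brahman skin (RPL15P, RPL21, RPL9 and RPS12) and 3 fell (RPL10, RPL10A and RPL22). In that setting 18.7% of the 19879 averaged features were called in either direction. RPL3 and RPL19 were not among the calls, so their calls above rest on their brightest probe set. Their other, dimmer probe sets ran the other way in Brahman skin, at 0.35 for RPL3 and 0.39 for RPL19, without passing.

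**Figure D4:**
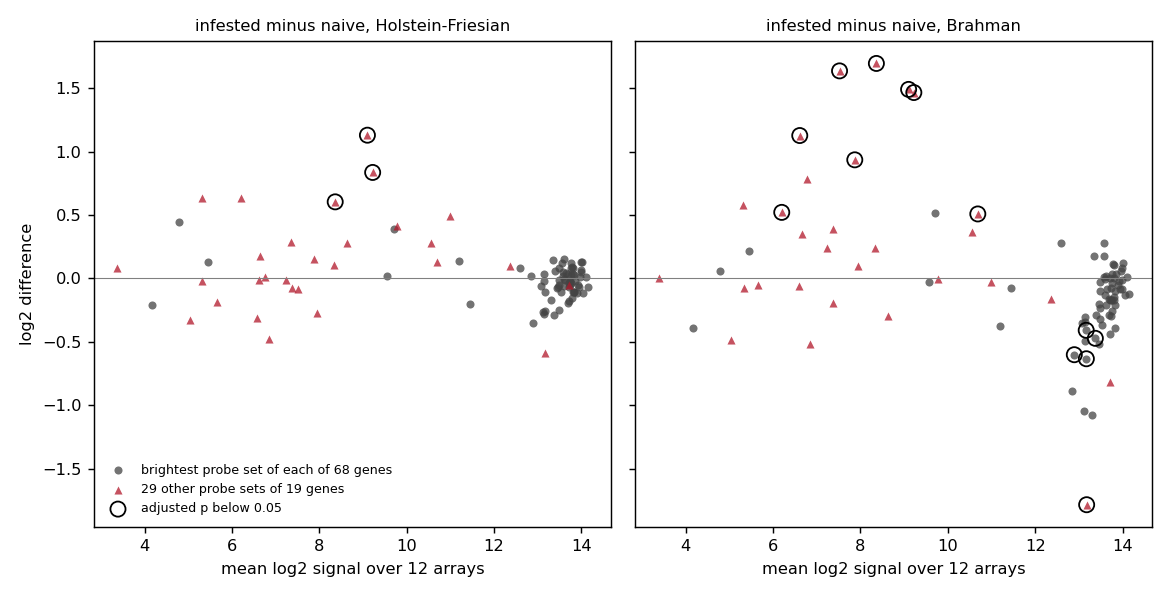
Infested minus naive differences (log2) are plotted against mean signal over 12 arrays (log2) in Holstein-Friesian (left) and Brahman skin (right), with grey circles for the brightest probe set of each of the 68 genes, red triangles for the 29 other probe sets and rings on those past the threshold. The ringed triangles that rise in Brahman skin lie below 12 log2, and the 1 that falls, of RPL10, lies among the bright probe sets at -1.78.

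Ribosomal proteins were numbered by their place in gels, broadly from larger to smaller proteins, and the Brahman difference varied with that number. This grouping was chosen after the values were seen and has no test. Over the 59 genes with a plain number, Spearman's rho between number and difference was 0.51 in Brahman skin, 0.62 within the large and 0.40 within the small subunit, and 0.35 in Holstein-Friesian skin. The 26 genes numbered up to 15 had a median Brahman difference of -0.25 log2, and the 33 with higher numbers one of -0.07. Of the 4 calls, RPL3 and RPL10A fall in the first group and RPL19 and RPL22 in the other. The genes were read on the same arrays, and the integrity index was lowest in the infested Brahman group. Its part in this pattern was not tested.

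**Figure D5:**
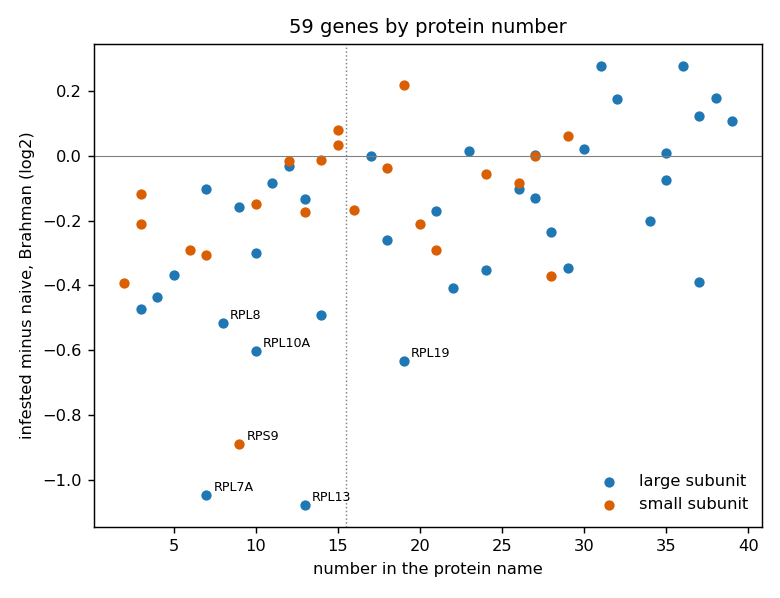
The infested minus naive difference in Brahman skin (log2) is drawn against the number in the protein's name for 59 genes, blue for the large and orange for the small subunit, with a dotted line between the genes numbered up to 15 and those above. Points on the left lie lower, with a median of -0.25 against -0.07 on the right, and RPL7A, RPL13 and RPS9 are the lowest.

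Other genes of protein synthesis gave a background for these differences. Among 10 measured of 12 elongation factors and other TOP messages, 3 fell in Brahman skin, where 10.2% of all probe sets did, and none passed in Holstein-Friesian skin, where 5.02% of all probe sets did and 1 of the list had an unadjusted p under 0.05. PABPC1, which binds the poly(A) tail, fell 3.10-fold (limma, adjusted p = 0.0281), EEF1D fell 1.68-fold (0.0242) and the translocase EEF2 fell 1.33-fold (0.0364), while TPT1 differed by 0.34 (0.0678). The median of this list was -0.41 log2 in Brahman skin. Of the ribosomal proteins named otherwise, FAU differed by -0.22 (0.168) and RACK1 by 0.00 in Brahman skin.

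Of 29 measured initiation factors of 37, 3 fell (10.3%) and 2 rose (6.90%) in Brahman skin, near the 10.2% and 9.54% of all probe sets, and none passed in Holstein-Friesian skin, where 3 had an unadjusted p under 0.05. The helicase EIF4A2 fell 3.87-fold (limma, adjusted p = 0.00243) and EIF2B4 fell 1.80-fold (0.0126), while EIF2B2 rose 1.49-fold. Of 37 measured genes of ribosome assembly of 47, 4 rose (10.8%) and 2 fell (5.41%) in Brahman skin, again near or below those shares of all probe sets. UTP15, of the early small subunit precursor, rose in both breeds, 2.30-fold in Brahman and 2.07-fold in Holstein-Friesian skin (limma, adjusted p = 0.034 in the latter), where it was the only call of its list. UTP6 of the same precursor fell 4.72-fold in Brahman skin and the helicase DDX21 fell 2.12-fold.

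The mitochondrial ribosome has its own nuclear-encoded proteins, and 67 of them were measured. In Brahman skin 13 fell (19.4%, against 10.2% of all probe sets) and 1 rose (1.49% against 9.54%), with a median of -0.31 log2, among them MRPL43 (1.84-fold lower, limma, adjusted p = 0.00163), MRPS36 (2.79-fold), MRPS17 (2.15-fold) and MRPL24 (1.92-fold). In Holstein-Friesian skin MRPL43 (1.51-fold, adjusted p = 0.0257) and MRPL12 (1.76-fold, 0.0336) fell, which is 2.99% against 2.34% of all probe sets, with a median of -0.16. The difference between the cytosolic and mitochondrial sets was not tested, and their probe sets differ in brightness. RPS19BP1, left out of all counts above, read 9.50, 9.47 and 9.65 in naive and 8.01, 8.66 and 8.39 in infested Brahman skin and fell 2.27-fold (limma, adjusted p = 0.00253). In Holstein-Friesian skin it differed by -0.15 (0.682).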

How the data were processed

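The authors deposited log2 expression values from RMA, per the submitters' processing notes. Which software and chip definition they used is not given. Detection calls were not used. After 112 control probe sets were left out, 24016 were tested. Of these 13292 had 1 gene symbol, 86 several and 10638 none. All 68 members' gene IDs were found in the RefSeq gene table.

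One model of 4 group means over 12 arrays was fitted in limma 3.58.1 under R 4.3.3 (8 residual and 3.03 prior degrees of freedom). The p-values were two-sided and adjusted by Benjamini-Hochberg over all probe sets within each of 5 comparisons, at 0.05. The procedure was tested on simulated data.

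The members and lists were chosen with earlier results of these data known. Named are members past the threshold, else the 5 with the smallest p, the stalk genes, RPSA, RPS19, RPL5, RPL11 and paralogs, and up to 4 genes a list.

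Same-numbered naive and infested Holstein-Friesian arrays deviated together (r = 0.22, 0.25 and 0.11), so the check takes these numbers as paired, though no label explains it. In no other pair of groups did all exceed 0.1, although the highest single r, 0.33, joined naive Holstein-Friesian array 1 and naive Brahman array 1. The replicate block was an alternative. The 12 animals were separate.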

Additional observations from a re-analysis of the deposited data

How the results depend on the processing

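The alternatives were cyclic loess, centring on the array median, a low-signal filter, a prior with trend and robust fit, only the arrays compared, a replicate block, omission of the 2 arrays of lowest integrity index, the index as a covariate, the mean of a gene's probe sets, and omission of each array. In Brahman skin RPL3, RPL19, RPL22 and RPL10A were lower in each of them. With the mean of probe sets RPL15P, RPL21, RPL9 and RPS12 passed as rises, whereas their brightest probe sets differed by -0.09, -0.17, -0.16 and -0.02 and did not pass. The count of calls stayed at 0 in Holstein-Friesian and between naive breeds in each of them. In Brahman skin the count of 4 became 2 with centring and 1 with only the arrays compared. It was 12 without the 2 arrays of lowest index, 0 with the index as a covariate and 7 with the mean of probe sets. The share of all probe sets called went from 19.8% to 20.8%, 12.5%, 26.0%, 7.53% and 18.7% in the same order. When single arrays were left out, with that share at 9.23% to 23.2%, the count was 0 to 6. With the replicate block it was 4, where RPL10A no longer passed (adjusted p = 0.0555, limma) and RPL7A did (0.0366), and the block changed no other call of a member. Without the 2 arrays, the count was 1 for the breed difference in effect and 5 between infested breeds. In these comparisons 4.71% and 9.16% of all probe sets were called.

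The Brahman median of -0.12 became -0.030 with centring and -0.040 with cyclic loess. After cyclic loess the median breed difference in effect was 0.016 and that between infested breeds -0.017. The large minus small median was 0.0057 without the 2 arrays, 0.0034 with the covariate and 0.0032 with the mean of probe sets in Brahman skin, and -0.002 to 0.063 when single arrays were left out. For the breed difference in effect it was -0.036 with the filter, -0.032 with cyclic loess, -0.036 with the covariate, -0.020 with the mean of probe sets, and -0.098 to -0.026 without single arrays. Between infested breeds it was -0.035 without the 2 arrays, -0.036 with the covariate and -0.088 to -0.025 without single arrays. The cause of these shifts was not tested.

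Of the calls in Brahman skin, RPL19 did not pass without naive Brahman array 2 or 3 or infested Brahman array 3, RPL3 without naive or infested Brahman array 2, RPL22 without any one of 7 arrays and RPL10A without any one of 8. RPL3 differed by -0.06 and RPL19 by -0.12 when probe sets were averaged. With 3 arrays a group the median SE was 0.13 log2 for a member, and signal over background is unknown.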

Other observations

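The 5 genes outside the ribosomal proteins whose deviations from the group means were most like those of RPLP0 over the 12 arrays were SUCLG1, a subunit of succinate-CoA ligase (Pearson's r = 0.99), VAPB, a tether of the endoplasmic reticulum (0.99), the SNARE protein VAMP8 (0.96), SSR4 of the translocon-associated complex (0.95) and the skin protease inhibitor CST6 (0.95). Without infested Brahman array 1 the values were 0.98, 0.97, 0.92, 0.89 and 0.88 over 11 arrays. The genes were picked for this measure, so the values are a description. RPLP0 was read here on its brightest probe set, which has the suffix for possible cross-hybridisation. This likeness was not computed for its other probe sets.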
